A study of Mus musculus with 17 samples.

Results

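Gene expression without MCJ was compared with wild type in untreated mice, in 5 of the 17 libraries of the series. The genes described are the autosomal and mitochondrial genes of the untreated count table that passed edgeR's filter on low counts. Of 27179 NCBI gene numbers in the table, 24001 lay on autosomes or the mitochondrial genome, and 12826 of those passed. The series asks how the loss of MCJ alters gene expression in the colon during experimental colitis. Wild-type and MCJ-deficient mice were left without a named treatment, given dextran sulphate sodium (DSS) for 6 days, or given an antibiotic for 7 days and then DSS for 6 days. The untreated groups were 3 wild-type libraries (numbered 1, 2 and 3) and 2 MCJ-deficient libraries (13 and 14). All 5 came from C57BL/6(h-2b) mice aged 8 weeks, with 1 mouse number per library and no sex given. The labels call the material colon macrophages. Their protocols describe washing, collagenase IV digestion, Trizol extraction and libraries from the NuGEN Universal Plus mRNA-Seq kit, and name no step that sorts cells. The labels do not say how the MCJ allele was made or whether the wild-type mice were littermates.

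MCJ, encoded by Dnajc15, is a J-domain co-chaperone anchored in the inner mitochondrial membrane. J-domain proteins stimulate Hsp70 partners, and MCJ is related to the J proteins of the motor that pulls proteins into the mitochondrial matrix. It is best known as a brake on complex I of the respiratory chain. The colon epithelium lives largely on mitochondrial oxidation of short-chain fatty acids made by the microbiota, so respiratory genes are abundant in colon RNA.

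Dnajc15 (chr14:77826217-77874917, GRCm38) was counted 1286, 359 and 1028 times in wild-type libraries 1, 2 and 3, and 104 and 111 times in MCJ-deficient libraries 13 and 14. Values below keep this order of libraries. As CPM (counts relative to 1000000 counts of the library, after trimmed-mean or TMM scaling) these were 49.0, 16.2 and 37.1 against 2.52 and 2.53. Both MCJ-deficient libraries were far below all 3 wild-type libraries, which matches their labels. The log2 fold change, MCJ-deficient minus wild type, was -3.76 (SE 0.55; edgeR quasi-likelihood test, Benjamini-Hochberg adjusted p = 0.326), so the targeted gene itself missed the threshold of 0.05 in this fit. It passed without a filter on low counts (edgeR adjusted p = 0.0177) and with limma-voom and quality weights (adjusted p = 0.0198), and over all alternatives the adjusted p ran from 0.0177 to 0.525. Of its 3 nearest tested neighbours on each side, Akap11, an A-kinase anchoring protein, was higher in both MCJ-deficient libraries (4.04, 5.28 and 11.8 against 14.6 and 18.9 CPM; log2 fold change 1.25, SE 0.57). Gm10132 was lower in both (568, 683 and 557 against 493 and 391 CPM; log2 fold change -0.45). The genotypes overlapped for Dgkh (0.27), Epsti1 (0.25), Ccdc122 (0.46) and Lacc1 (-0.38; log2 fold changes), and each of these 4 changed sign under at least 1 other setting. Over the 37 tested genes within 5 Mb of Dnajc15 the median log2 fold change was 0.04, and 3 of them had an unadjusted p under 0.05. The 437 genes tested on chromosome 14 had a median of 0.13.

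Library totals ran from 29194744 to 33930200 counts. A pair of wild-type libraries stood apart. Wild-type library 2 was the least like the others: its correlation with each of them across genes was 0.88 to 0.89 (log2 of CPM + 1), against 0.94 to 0.98 for every other pair. It held at least 10 counts for 9587 of the 24001 autosomal and mitochondrial gene numbers, filtered or not. The other libraries held them for 11725 to 12808. Wild-type library 3 had 1 count of Xist, the RNA that coats the inactive X chromosome, where the others had 1100 to 7950. Medians that moved by over 1.5 times when 1 library was left out are given with that value. TMM factors were 0.90, 0.75 and 0.82 in wild type and 1.38 and 1.31 in MCJ-deficient libraries. Because the libraries are bulk RNA, fewer cells of a type and less RNA per cell cannot be told apart. The p-values measure the spread between these 5 samples only.

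The macrophage label was not borne out by most of its defining genes. Of 20 macrophage markers, 11 passed the filter, and Cd163, Timd4 and Siglec1 had 0 counts in all 5 libraries. Adgre1, which encodes F4/80, had 1, 2 and 0 counts in wild type and 30 and 10 counts without MCJ. Csf1r, the receptor for the macrophage growth factor, had 0, 101 and 1 counts against 25 and 41. Mertk had 151, 74 and 407 counts against 682 and 548, and Cd14 had 355, 395 and 523 against 775 and 686. Mertk and Cd14 held most of the list's counts in every library. Together the 20 markers made up 27.5, 24.9 and 38.5 CPM of the unscaled library in wild type and 65.9 and 54.2 without MCJ. After TMM scaling the sums of the 11 markers that passed overlapped, at 30.5, 32.8 and 46.2 CPM against 46.7 and 40.4 CPM. The 22 colonocyte markers made up 30411, 26155 and 28290 CPM of the unscaled library in wild type and 34525 and 41076 without MCJ. After TMM scaling the colonocyte sums had the reverse order, at 33841, 34734 and 34675 CPM against 25009 and 31379 CPM. These preparations are therefore called colon preparations here.

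Across the 12826 genes no gene passed the threshold in either direction (0.0% higher and 0.0% lower; edgeR quasi-likelihood test, smallest adjusted p = 0.231). At an unadjusted p under 0.05 there were 441 genes higher without MCJ (3.44%) and 618 lower (4.82%). DESeq2, run as an alternative, called 23 genes higher (0.93%) and 252 lower (10.2%) of the 2473 genes to which it gave an adjusted p. Genes are therefore described by whether both MCJ-deficient libraries lay above, or both lay below, all 3 wild-type libraries. By that measure 2329 genes were higher (18.2%) and 1584 were lower (12.3%), and every count for a gene list should be read against these 2 shares. Both shares changed with exon length, as shown further on, so lists of short or long genes have other yardsticks. The median log2 fold change over all 12826 genes was 0.08 (0.04 without wild-type library 2 and 0.14 without wild-type library 1 or 3), and 54.8% of them had a positive and 45.2% a negative value.

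The genes with the smallest p included 3 transporters or pumps and several mitochondrial proteins on the higher side. Slc37a2, a sugar-phosphate exchanger of the endoplasmic reticulum, had 83.8, 55.6 and 69.4 CPM in wild type and 256 and 224 without MCJ (log2 fold change 1.79, SE 0.23; edgeR adjusted p = 0.231). Atp12a, the colonic H+/K+ pump, had 46.5, 55.3 and 38.4 against 118 and 156 CPM (1.56, SE 0.24; edgeR adjusted p = 0.393). Slc20a1, a sodium-phosphate cotransporter, had 190.1, 138 and 241 against 522 and 447 CPM (1.35, SE 0.27; edgeR adjusted p = 0.572). For each of the 3 the lowest MCJ-deficient library was well above the highest wild-type library. Non-overlap was a condition for the genes of smallest p named on either side, so the gap itself is no finding. Mpp6, a membrane scaffold protein, had 17.3, 15.0 and 19.04 against 56.2 and 62.8 CPM (1.8, SE 0.24; edgeR adjusted p = 0.231). Dhx9, an RNA helicase, had 12.96, 10.1 and 7.41 against 43.4 and 38.4 CPM (2.01, SE 0.33; edgeR adjusted p = 0.489). Among mitochondrial proteins on this side were Iars2, the mitochondrial isoleucyl-tRNA synthetase (log2 fold change 1.23, SE 0.26), Afg3l2, a subunit of the inner-membrane m-AAA protease (1.02, SE 0.27), and Cpt1a (0.85, SE 0.18). Cpt1a admits long-chain fatty acids to mitochondrial oxidation, and its values were among the tightest: 83.9, 77.7 and 75.3 against 141 and 144 CPM. Papss2, which makes the sulphate donor used for mucin sulphation, had a log2 fold change of 1.01 (SE 0.22), and Acbd5, a peroxisomal acyl-CoA-binding protein, 1.46 (SE 0.31).

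On the lower side stood secreted defence proteins and a chemokine. Ang4, an antimicrobial ribonuclease of secretory cells, had 151, 127 and 121 CPM in wild type and 7.11 and 16.2 without MCJ (log2 fold change -3.51, SE 0.40; edgeR adjusted p = 0.231). Retnlb, the goblet-cell product RELM-beta, had 45.1, 158 and 48.2 against 8.20 and 8.80 CPM (-3.30, SE 0.63; edgeR adjusted p = 0.572). Tppp3, a tubulin-binding protein, had 144, 131 and 155 against 22.9 and 35.1 CPM (-2.31, SE 0.26; edgeR adjusted p = 0.231). In all 3 the wild-type libraries were several times the higher MCJ-deficient library. Ccl21a, a ligand of CCR7 made by lymphatic endothelium, had 35.3, 72.2 and 88.1 against 6.10 and 8.21 CPM (-3.19, SE 0.45; edgeR adjusted p = 0.286). Ccl21b and Ccl21d had identical counts in every library, so reads of these near-identical copies are shared and count as 1 signal. Fabp4, a fatty acid carrier of adipocytes and capillary endothelium, had 23.7, 18.2 and 16.1 against 2.47 and 0.957 CPM (-3.49, SE 0.60; edgeR adjusted p = 0.547). The 14 endothelial markers summed to 20.1, 12.9 and 40.3 CPM of the unscaled library in wild type and 10.4 and 13.8 without MCJ. These sums overlap. With TMM scaling the 11 markers that passed the filter summed to 22.3, 16.96 and 46.1 CPM against 6.99 and 10.3 CPM, without overlap. The part of endothelial content in the Ccl21 and Fabp4 values was not tested. Lower by smaller amounts were Pmp22, a membrane protein also found at epithelial junctions (log2 fold change -1.24), Psenen, a gamma-secretase subunit (-1.0), Dio1, a thyroid hormone deiodinase (-0.91), and Gstk1, a mitochondrial and peroxisomal glutathione transferase (-0.95).

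**Figure D1:**
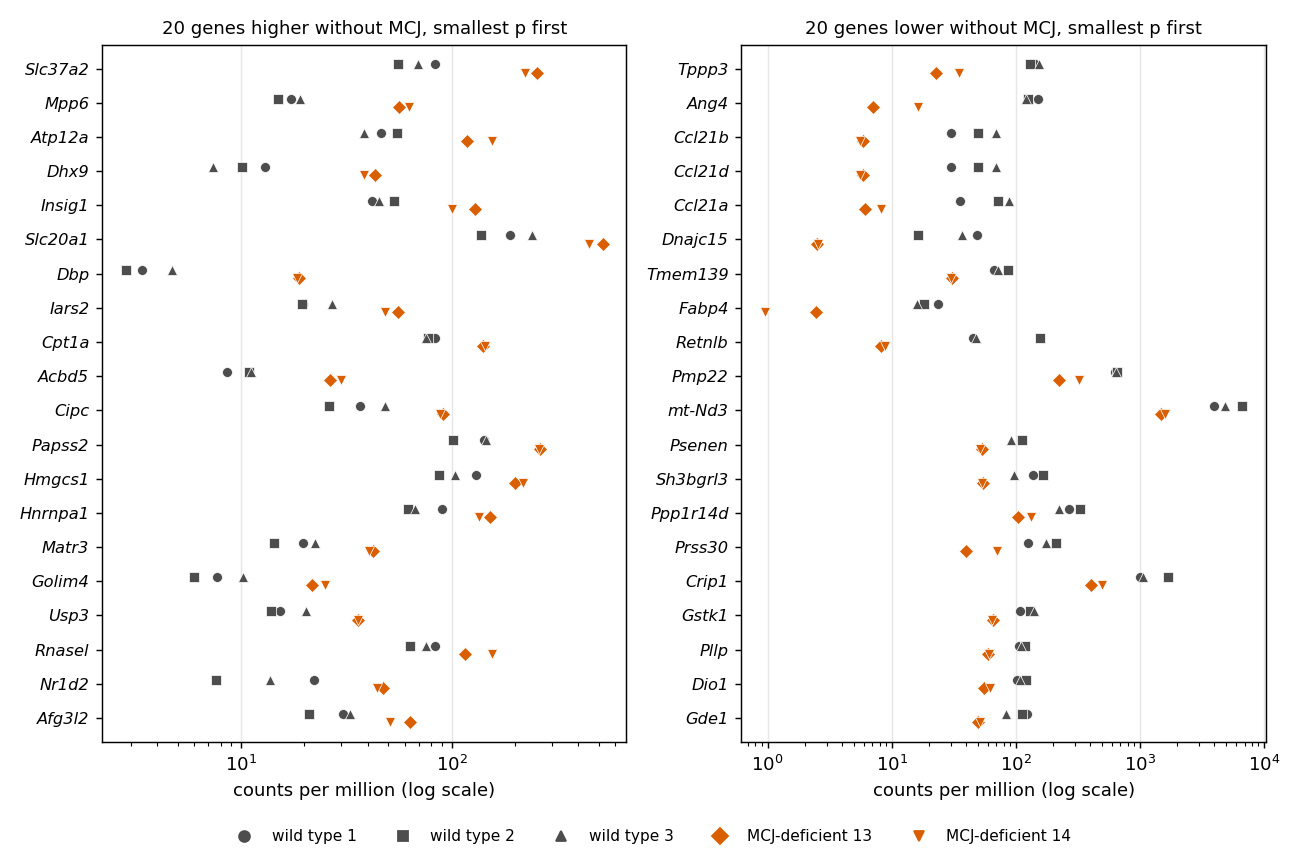
CPM (log scale) of the 20 genes higher (left) and the 20 lower (right) without MCJ that had the smallest p among named genes with a mean of at least 5 CPM and no overlap of the genotypes. Grey symbols are wild-type libraries 1, 2 and 3, and orange symbols are MCJ-deficient libraries 13 and 14; since non-overlap chose these genes, the gap itself is no finding, and the plot shows how wide it was, for example in Dnajc15 (log2 fold change -3.76), Ang4 (-3.51) and Cpt1a (0.85).

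Differences between the genotypes went along with a gene's exon length, a view added after the data had been seen. Exon length here is the union of all exons of a gene, not the length of 1 transcript. Exon length was known for 12038 of the 12826 genes (93.9%). The genes were divided by exon length into 10 bins of near-equal size. In the bin of shortest exon length (median 1234.5 bases) the median log2 fold change was -0.53. It was larger in each following bin, up to 0.42 in the longest (median 12323.5 bases). In the shortest bin 35.8% of genes were lower in both MCJ-deficient libraries and 4.73% were higher. In the longest bin 2.91% were lower and 28.9% were higher. Libraries also differed within a genotype. Relative to each gene's mean over the 5 libraries, the shortest genes stood at 0.10, 0.37 and 0.06 in wild type and at -0.16 and -0.29 without MCJ (median, log2 of CPM + 1). The longest genes stood at 0.06, -0.53 and 0.01 in wild type and at 0.19 and 0.35 without MCJ. Wild-type library 2 had the steepest slope, in the direction opposite to the MCJ-deficient libraries. Without it the medians still ran from -0.40 in the shortest bin to 0.24 in the longest. Which property of the RNA or libraries this reflects was not tested, and each gene list below is also given after scaling within the 10 bins of exon length. Under that scaling no gene passed edgeR's threshold, and the smallest adjusted p was 0.525.

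**Figure D2:**
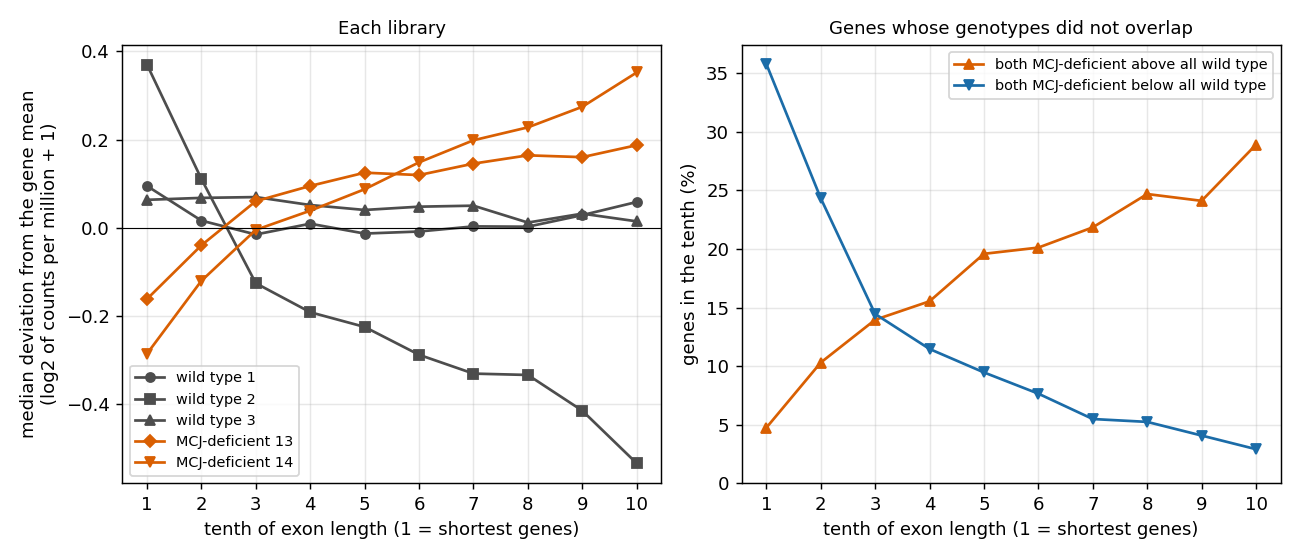
Left: median deviation of each library from the gene mean (log2 of CPM + 1) in bins of exon length, with grey lines for wild-type and orange lines for MCJ-deficient libraries; wild type 2 falls from 0.37 to -0.53 while MCJ-deficient 14 rises from -0.29 to 0.35. Right: percent of genes in each bin whose MCJ-deficient libraries both lay above (orange) or both below (blue) all wild-type libraries, from 4.73% to 28.9% and from 35.8% to 2.91%.

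The mitochondrial genome supplied a smaller part of the RNA without MCJ. Its share of all counts was 38.9%, 42.2% and 50.4% in wild type and 23.1% and 28.4% in MCJ-deficient libraries. The means differed by -18.1 percentage points (wild type 43.8% ± 5.93, SD, n = 3; MCJ-deficient 25.7% ± 3.70, SD, n = 2; p = 0.2 by a two-sided exact permutation test, which cannot give less with 10 arrangements). All 13 mitochondrial protein genes were lower in both MCJ-deficient libraries, with a median log2 fold change of -1.43, or -0.88 after length scaling. The cytochrome c oxidase subunit gene mt-Co3 had 69903, 92618 and 86641 CPM in wild type and 21564 and 27382 without MCJ (log2 fold change -1.76, SE 0.60). The complex I subunit gene mt-Nd3 had 3993, 6674 and 4875 against 1494 and 1591 CPM (-1.75, SE 0.35). For mt-Nd5, another complex I subunit, values were 4538, 5384 and 6183 against 2292 and 3304 CPM (-0.94, SE 0.34). Mitochondrial genes are copied as long shared transcripts, so the 13 genes are not independent observations. The edgeR adjusted p was 0.572 for each of these 3 genes.

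Within the mitochondrial counts a few genes held different parts in the 2 genotypes. mt-Co3 took 16.2%, 16.5% and 14.03% of mitochondrial counts in wild type and 12.9% and 12.6% without MCJ. In contrast mt-Nd4 took 3.06%, 3.12% and 3.85% against 4.24% and 4.59%, and mt-Nd5 took 1.05%, 0.96% and 1.00% against 1.37% and 1.53%. mt-Nd2 took 1.40%, 1.36% and 1.30% against 1.69% and 1.56%. So 3 of the 15 mitochondrial genes, all of complex I, held a larger part of a smaller whole, and mt-Co3 held a smaller part. These counts are near or below the shares without overlap among all genes (18.2% higher and 12.3% lower, by CPM). No pattern by complex is read from them. The genotypes overlapped for the other 11 genes, the 2 ribosomal RNA genes and mt-Co1 among them (36.0%, 31.9% and 37.3% against 34.4% and 37.8%). Shares of mt-Atp8 with mt-Atp6, and of mt-Nd4l with mt-Nd4, are uncertain because these genes overlap.

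**Figure D3:**
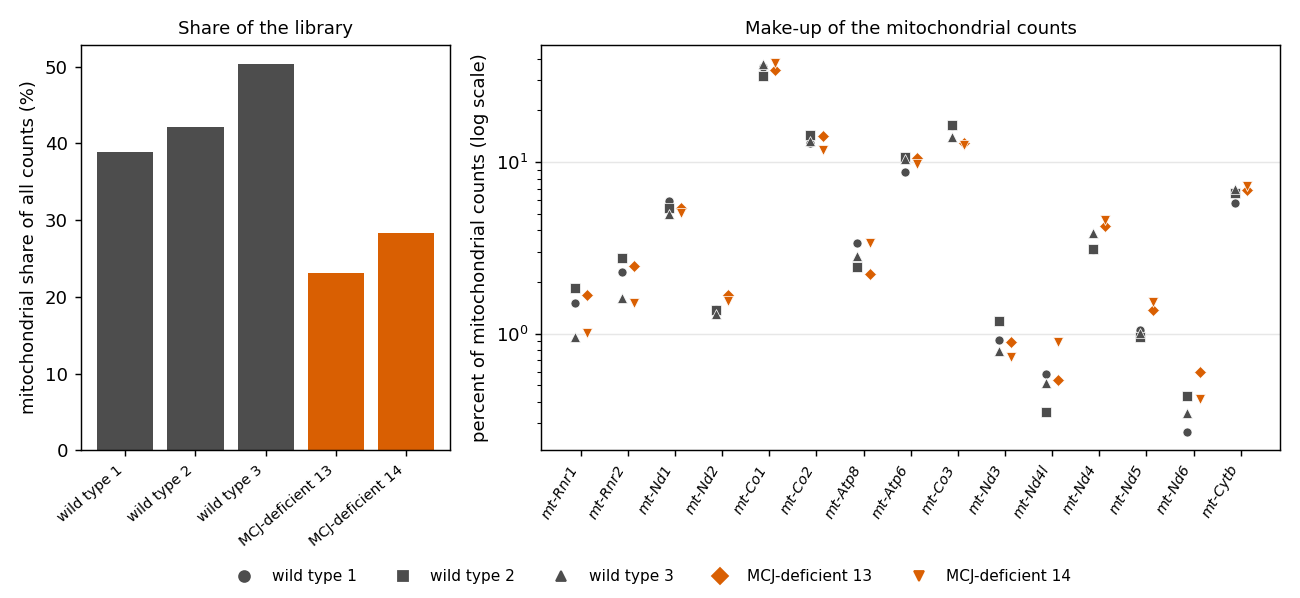
Left: percent of all counts that came from mitochondrial genes, 1 bar per library, at 38.9%, 42.2% and 50.4% in wild type (grey) and 23.1% and 28.4% without MCJ (orange). Right: percent of the mitochondrial counts taken by each mitochondrial gene (log scale), 1 symbol per library; mt-Co3 is lower and mt-Nd2, mt-Nd4 and mt-Nd5 are higher in both MCJ-deficient libraries.

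Nuclear genes of the respiratory chain lay lower as well. Of 72 nuclear subunit genes tested, 57 were lower in both MCJ-deficient libraries and 3 were higher, with a median log2 fold change of -0.63. After length scaling that median was -0.20, and the list's median exon length was 1814.5 bases. In complex I, which MCJ is known to restrain, 26 of 34 were lower and 1 was higher (median -0.57; -0.20 scaled for length). Ndufa11, a membrane-arm subunit, had 179, 240.3 and 111 CPM in wild type and 83.0 and 79.5 without MCJ (log2 fold change -1.12, SE 0.33; edgeR adjusted p = 0.572). Ndufb4, also of the membrane arm, had 189, 235 and 181 against 128 and 97.7 CPM (-0.84, SE 0.23; edgeR adjusted p = 0.572). All 11 complex IV genes were lower (median -0.81; -0.21 scaled for length), among them Cox6c (log2 fold change -0.86) and Cox7a2 (-0.74, but -0.18 scaled for length). Of 15 ATP synthase genes 13 were lower (median -0.63; -0.26 scaled), and here some members kept their size: Atp5g1, the membrane ring subunit, was at -0.89 (-1.02 scaled) and Atp5l at -0.89 (-1.14 scaled). In complex III 6 of 8 were lower, but its median of -0.45 became 0.03 after length scaling. Complex II, which is encoded in the nucleus alone, was split: Sdhb was lower (376, 451 and 365 against 323 and 247 CPM) and Sdha higher (161, 108 and 202 against 225 and 206 CPM). The catalytic subunit of ATP synthase, Atp5a1, was higher in both MCJ-deficient libraries, at 1156, 1145 and 1193 against 1406 and 1264 CPM (log2 fold change 0.20, SE 0.22).

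Members of the import motor to which MCJ is related lay on both sides. Its Hsp70, Hspa9 (mortalin), was higher in both MCJ-deficient libraries, at 93.0, 83.9 and 101 against 180.4 and 130.2 CPM (log2 fold change 0.75, SE 0.22; edgeR adjusted p = 0.572). Timm44, which tethers that Hsp70 to the channel, was also higher, at 17.1, 16.2 and 19.5 against 28.5 and 21.5 CPM (0.50, SE 0.30; edgeR adjusted p = 0.783). Lower in both were Pam16, the J-like partner that restrains the motor's J protein (27.7, 53.4 and 15.1 against 14.3 and 14.4 CPM; log2 fold change -1.16, SE 0.52), and Dnajc19, the J protein closest to MCJ (19.97, 32.0 and 25.5 against 17.5 and 17.8 CPM; -0.55, SE 0.31). Of the channel and its receptor, Timm23 (-0.50), Timm17a (-0.47) and Timm50 (-0.61) were lower too. Counting Dnajc15 itself, 8 of 12 were lower and 2 higher, with a median of -0.47 (-0.38 scaled for length).

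Of 23 genes that copy and process the mitochondrial genome 6 were higher in both MCJ-deficient libraries and 1 was lower, with a median log2 fold change of 0.39 (0.26 scaled for length; 0.22 without wild-type library 1 and 0.09 without MCJ-deficient library 13). The share that was higher is not far from the 18.2% of all genes, and 0 of the 23 had an unadjusted p under 0.05. Lrpprc, which stabilises mitochondrial mRNA, had 14.1, 8.35 and 20.6 against 25.3 and 22.1 CPM (0.72, SE 0.42). Pnpt1, a mitochondrial polynucleotide phosphorylase, had 16.2, 11.2 and 7.84 against 17.7 and 19.2 CPM (0.65, SE 0.42). The mitochondrial ribosome's 77 genes had 32 lower and 0 higher (median -0.35; -0.23 scaled for length; -0.53 without MCJ-deficient library 13). The cytosolic ribosome's 75 genes had 39 lower and 1 higher (median -0.50; -0.17 scaled; -0.30 without wild-type library 2 and -0.27 without MCJ-deficient library 14).

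Fuel pathways outside the chain were mixed. In the TCA cycle 5 of 14 genes were higher in both MCJ-deficient libraries and 2 were lower. Mdh2, malate dehydrogenase, had the lowest log2 fold change, at 461, 496 and 373 against 275 and 236 CPM (-0.80, SE 0.23), a value that length scaling left at -0.80. Of 25 genes of fatty acid oxidation and ketogenesis 3 were higher, namely Cpt1a, Hadha (the trifunctional protein's alpha chain; log2 fold change 0.56, SE 0.21) and Bdh1 (ketone body dehydrogenase; 0.74, SE 0.25), and 2 were lower (median 0.03; -0.05 to 0.15 with 1 library left out), close to the shares among all genes. In glycolysis Gapdh had 166, 234 and 171 against 93.5 and 120.2 CPM (-0.83, SE 0.25), while 4 of the 17 genes were higher and 2 lower.

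In the circadian clock list 6 of 17 genes were higher and 2 lower in both MCJ-deficient libraries. The clock is a feedback loop in which the activators ARNTL (BMAL1) with CLOCK or NPAS2 bind E-box elements and drive Per, Cry, Nr1d and Dbp genes; DBP and its relatives act on D-boxes, and REV-ERB proteins (Nr1d1 and Nr1d2) repress Arntl through a short element bound by orphan receptors. E-box output genes and the activators peak at opposite times of day. The promoters below were picked because they hold such elements, in 2 clock genes without overlap and in Hmgcs1, a cholesterol gene taken up further on. Each is the 250 bases before the RefSeq start site (GRCm38.p6), written 5′ to 3′ on the gene's strand, with the motif in capitals. Per3 (chr4:151044666-151044915, minus strand) shows D-boxes, Ciart (chr3:95882229-95882478, minus strand) shows E-boxes, and Hmgcs1 (chr13:119690101-119690350, plus strand) shows a sterol element.
Per3: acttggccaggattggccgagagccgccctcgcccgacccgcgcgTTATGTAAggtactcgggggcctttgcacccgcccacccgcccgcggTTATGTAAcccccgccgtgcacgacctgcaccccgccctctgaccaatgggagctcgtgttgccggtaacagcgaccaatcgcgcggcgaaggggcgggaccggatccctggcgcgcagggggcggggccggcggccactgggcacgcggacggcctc
Ciart: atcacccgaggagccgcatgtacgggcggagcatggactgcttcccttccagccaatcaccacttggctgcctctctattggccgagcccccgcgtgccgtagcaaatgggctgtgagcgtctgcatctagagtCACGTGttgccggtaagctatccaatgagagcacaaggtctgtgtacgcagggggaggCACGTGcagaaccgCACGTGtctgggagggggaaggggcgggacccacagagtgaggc
Hmgcs1: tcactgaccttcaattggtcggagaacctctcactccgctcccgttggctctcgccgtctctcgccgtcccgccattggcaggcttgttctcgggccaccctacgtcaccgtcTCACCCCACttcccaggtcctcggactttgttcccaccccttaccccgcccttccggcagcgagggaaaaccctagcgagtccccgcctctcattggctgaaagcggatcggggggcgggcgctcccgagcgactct

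The 6 clock genes that were higher in both MCJ-deficient libraries were Dbp, Per3, Nr1d2, Ciart, Bhlhe40 and Per1. Dbp had 3.39, 2.84 and 4.73 CPM in wild type and 18.9 and 18.4 without MCJ (log2 fold change 2.35, SE 0.48; edgeR adjusted p = 0.572), the same 2.35 after length scaling and 2.58 without wild-type library 3. Per3 had 0.419, 1.89 and 0.578 against 5.59 and 6.06 CPM (2.59, SE 1.09; edgeR adjusted p = 0.601). Nr1d2, which encodes REV-ERB-beta, had 22.1, 7.58 and 13.7 against 47.2 and 44.3 CPM (1.66, SE 0.43; edgeR adjusted p = 0.572). In these 3 genes the MCJ-deficient libraries lay close to each other and above every wild-type library. Ciart, a repressor of CLOCK-BMAL1, had 4.15, 2.17 and 0.0361 against 7.72 and 8.37 CPM (1.92, SE 1.39), its lowest wild-type value being that of library 3. Bhlhe40, another repressor, had 151, 119 and 148 against 257 and 172 CPM (0.62, SE 0.24), and Per1 had 18.9, 23.8 and 12.5 against 26.5 and 24.2 CPM (0.46, SE 0.35). Cipc, a CLOCK-interacting repressor outside the list, was at 36.8, 26.3 and 48.4 against 91.2 and 88.3 CPM (1.27, SE 0.28; edgeR adjusted p = 0.572).

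Of the 3 activator genes, Arntl and Npas2 were lower and Clock overlapped. Arntl had 11.5, 24.4 and 15.8 CPM in wild type and 6.99 and 6.52 without MCJ (log2 fold change -1.35, SE 0.47; edgeR adjusted p = 0.572). Npas2 had 5.87, 4.15 and 9.43 against 2.23 and 2.07 CPM (-1.59, SE 0.81; edgeR adjusted p = 0.697). Both were lower in each MCJ-deficient library than in any wild-type library. Cry1 leaned the same way but overlapped (4.69, 10.2 and 10.8 against 4.91 and 5.63 CPM), and Clock overlapped (19.5, 5.77 and 26.2 against 18.7 and 30.0 CPM), as did Per2 (7.09, 9.11 and 4.73 against 7.26 and 9.67 CPM) and Nr1d1 (109, 76.5 and 48.9 against 99.8 and 97.5 CPM). Over the 17 clock genes tested the median was 0.46 (0.26 scaled for length; 0.34 to 0.62 with 1 library left out). The labels give no hour at which tissue was taken, so hour and genotype cannot be told apart.

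Motifs were searched on both strands in the RefSeq promoters, each 300 bases from 250 before to 50 after a start site, which exist in the table for 14 of the 17 clock genes. The E-box CACGTG was present in 4 of the 14 genes, against 7.15% of all 32851 promoters in the table and 11.5% of the 9934 tested genes with a promoter. It was also present in 3 of the 12 cholesterol genes with a promoter. The promoters of Dbp, Nr1d2 and Npas2 in the table held none of the motifs. Ciart held 3 copies, with first bases at -116, -58 and -44 from the start site. A gene was counted if any of its promoters held the motif. The D-box TTATGTAA was present in 1 of the 14, Per3, in 2 copies at -205 and -158. It was in 0.94% of all promoters and in 0.69% of the tested genes with a promoter. The orphan receptor element TAGGTCA was present in 2 of the 14, Arntl (at 31 bases after the start) and Nfil3. It was in 2.61% of all promoters and in 2.5% of the tested genes with a promoter. Among these genes no match overlapped another. A match describes the letters in this window only.

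Genes of the cholesterol list leaned higher. This pathway is run by SREBP2, which is held in the endoplasmic reticulum by INSIG proteins when sterols are plentiful, and which in turn drives Insig1 and most of the enzymes. Insig1 had 41.7, 53.5 and 45.1 CPM in wild type and 129 and 100.4 without MCJ (log2 fold change 1.29, SE 0.22; edgeR adjusted p = 0.547), a value that length scaling left at 1.29. Srebf2, which encodes SREBP2, had 36.9, 24.3 and 32.9 against 45.4 and 54.9 CPM (0.68, SE 0.26; edgeR adjusted p = 0.572). Regulator and sensor were thus both higher in each MCJ-deficient library.

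Of the enzymes, Hmgcs1, the HMG-CoA synthase whose promoter is printed above, had 131, 86.9 and 104 against 201 and 218 CPM (log2 fold change 0.97, SE 0.23; edgeR adjusted p = 0.572). Lss, lanosterol synthase, had 7.05, 3.43 and 5.85 against 12.0 and 13.97 CPM (1.25, SE 0.54; edgeR adjusted p = 0.615). Idi1, isopentenyl-diphosphate isomerase, had 81.2, 28.5 and 58.8 against 117 and 87.1 CPM (0.86, SE 0.41; edgeR adjusted p = 0.674). Lower in both MCJ-deficient libraries was Fdps, farnesyl-diphosphate synthase, at 127, 118 and 93.7 against 78.3 and 69.8 CPM (-0.61, SE 0.22; edgeR adjusted p = 0.572). In all, 10 of 19 genes were higher in both MCJ-deficient libraries, against 18.2% of all genes, and 1 was lower. By sign alone 13 of the 19 log2 fold changes were positive and 6 negative. The median was 0.35 (0.29 scaled for length; 0.26 to 0.50 with 1 library left out), and 8 of the 19 overlapped. The sterol element TCACNCCAC was present in 1 of the 12 genes of the list that have a promoter in the table (Hmgcs1, first base at -137). It was in 1.24% of all promoters and in 1.39% of the tested genes with a promoter.

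**Figure D4:**
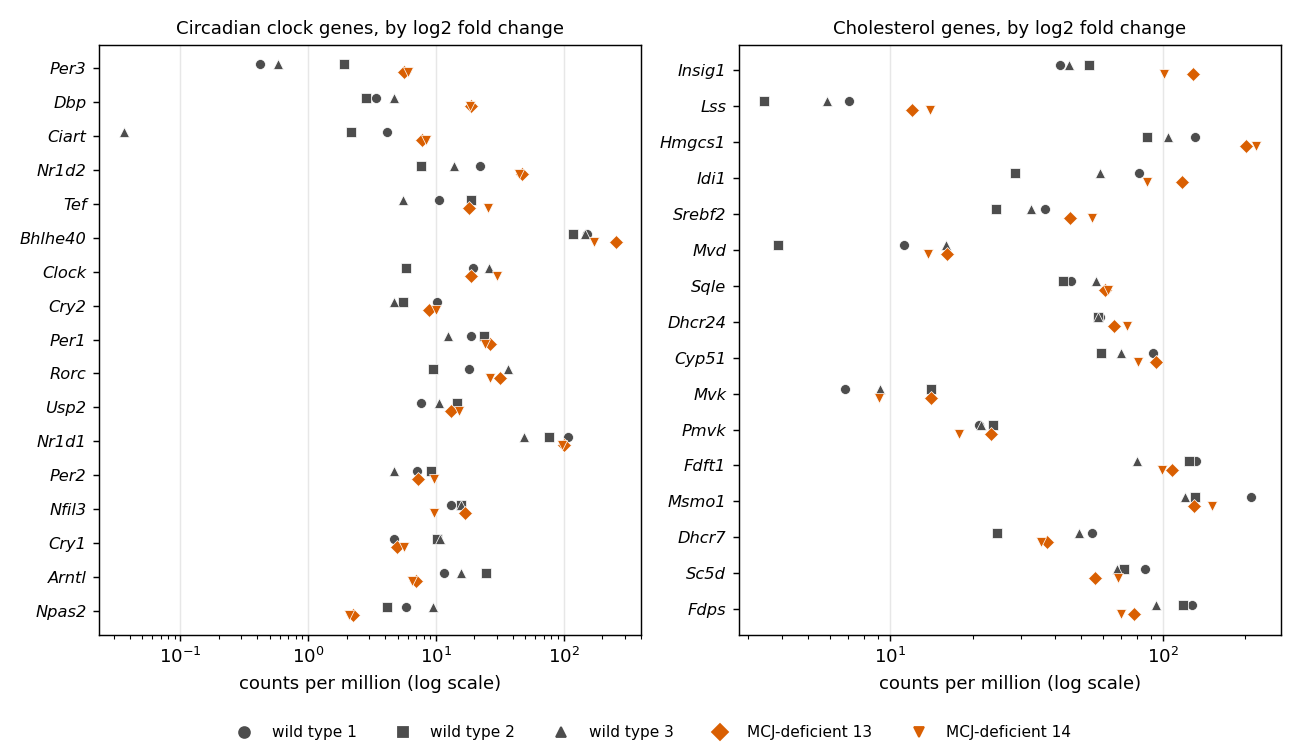
CPM (log scale) of the 17 clock genes (left) and 16 genes of the cholesterol list (right), ordered by log2 fold change, with grey symbols for wild-type and orange symbols for MCJ-deficient libraries. Dbp and Per3 lie far to the right without MCJ while Arntl and Npas2 lie to the left, and Insig1 and Hmgcs1 lie to the right of every wild-type library.

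Genes for moving ions and solutes across the epithelium leaned higher. Besides Atp12a and Slc20a1, Slc26a2, the sulphate transporter, had 149, 81.4 and 116 against 179 and 255 CPM (log2 fold change 0.91, SE 0.30; edgeR adjusted p = 0.572). Slc12a2, which loads chloride for secretion, had 21.6, 21.4 and 20.2 against 33.0 and 29.8 CPM (0.57, SE 0.25; 0.17 scaled for length). Both subunits of the basolateral bile acid exporter were lower: Slc51a had 127, 96.0 and 64.1 against 51.9 and 45.8 CPM (-0.97, SE 0.31), and Slc51b had 34.2, 68.0 and 39.2 against 22.8 and 20.4 CPM (-1.12, SE 0.35). Of 22 genes, 8 were higher and 2 lower, with a median of 0.40 (0.30 scaled for length; 0.25 without wild-type library 2).

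Defence and goblet-cell genes leaned lower, with exceptions. Of 24 antimicrobial and epithelial defence genes 11 were lower and 3 higher in both MCJ-deficient libraries (median -0.83; -0.36 scaled for length). The median exon length of this list was 1229.5 bases, and in the bin of shortest exon length 35.8% of all genes were lower. Sprr2a1, a small proline-rich protein with close copies, had 315, 599 and 407 against 127 and 228 CPM (log2 fold change -1.31, SE 0.37). Against this, the C-type lectins Reg4 (77.3, 36.1 and 59.8 against 157 and 115 CPM; 1.24, SE 0.33) and Reg3g (39.3, 46.0 and 27.8 against 77.8 and 69.7 CPM; 0.97, SE 0.26) were higher. The polymeric immunoglobulin receptor Pigr, which carries IgA into the lumen, had 946, 757 and 925 against 2001 and 1296 CPM (0.91, SE 0.28). The edgeR adjusted p was 0.572 for each of these 4 genes. Of 14 goblet-cell genes 5 were lower and 0 higher. Their median exon length, 2305 bases, fell in a bin where 24.3% of all genes were lower. Muc2, the main mucin of the colon, had 474, 565 and 447 against 246 and 330.3 CPM (-0.78, SE 0.24). The goblet-cell factor Spdef had 16.7, 29.3 and 11.7 against 8.90 and 6.15 CPM (-1.35, SE 0.51). Tff3, the trefoil peptide, spread widely in wild type (845, 577 and 241 against 157 and 193 CPM; -1.66, SE 0.50), and Clca1, which processes mucin, had 1009, 543 and 482 against 248 and 378 CPM (-1.12, SE 0.39). The goblet-cell median was -0.70 (-0.15 scaled for length). As CPM of the unscaled library, the goblet-cell markers summed to 5398, 3268 and 2067 in wild type and 2484 and 3146 without MCJ, which overlap. After TMM scaling the sums were 6007, 4340 and 2533 against 1799 and 2403 CPM, which do not overlap.

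Colonocyte genes were mixed in sign, 9 positive and 13 negative. Of 22, 8 were lower and 0 higher in both MCJ-deficient libraries, but the median of -0.20 became 0.11 after length scaling. It was 0.05 without MCJ-deficient library 13, -0.51 without MCJ-deficient library 14 and -0.12 without wild-type library 3. Car4, a carbonic anhydrase of the surface epithelium, had 233, 400.0 and 352 against 89.1 and 171 CPM (log2 fold change -1.34, SE 0.36; edgeR adjusted p = 0.572). Guca2a, guanylin, had 2460.0, 3564 and 2975 against 1002 and 1551 CPM (-1.23, SE 0.33; edgeR adjusted p = 0.572). Krt18, a keratin, was at 215, 427 and 293 against 189.6 and 176 CPM (-0.77, but -0.17 scaled for length). Of 22 junction genes 3 were higher and 1 lower (median 0.29; 0.14 without MCJ-deficient library 14). The lower one was Cldn8, a sealing claudin, with 161, 96.3 and 137 against 51.9 and 84.3 CPM (-0.95, SE 0.32; edgeR adjusted p = 0.572).

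Genes of RNA processing and the cell cycle leaned higher. Of 28 splicing genes 14 were higher and 1 lower, with a median of 0.51 (0.28 scaled for length). Srsf5 had 162, 129.6 and 190.3 against 364 and 253 CPM (log2 fold change 0.94, SE 0.25), Hnrnpa1, outside the list, had 90.6, 62.2 and 67.2 against 152 and 135 CPM (0.97, SE 0.23), and Hnrnpa2b1 had 181, 127 and 225 against 326 and 261 CPM (0.72, SE 0.28). The SR protein gene Srsf7 was the lower one, at 63.5, 82.1 and 61.7 against 48.8 and 46.0 CPM (-0.54, SE 0.22). Chromatin regulators are among the genes of longest exon length. Their median of 0.49 was 0.14 after length scaling, 0.21 without wild-type library 2 and 0.21 without MCJ-deficient library 14. Of 26, 5 were higher, a share near that of all genes, where the bin of longest exon length had 28.9%. Kdm5a, a histone demethylase, had 5.64, 0.992 and 6.54 against 12.5 and 10.9 CPM (1.41, SE 0.82). In the cell cycle 13 of 30 genes were higher and 0 lower (median 0.63; 0.68 scaled for length; 0.62 to 1.02 with 1 library left out, the highest without wild-type library 3), though none of the 30 had an unadjusted p under 0.05. Examples were Ccnd1, cyclin D1 (19.4, 6.77 and 16.4 against 27.6 and 27.7 CPM; 0.96, SE 0.46), and Rrm2, a ribonucleotide reductase subunit (1.79, 2.08 and 0.578 against 3.87 and 4.97 CPM; 1.58, SE 1.07). The helicase gene Mcm7 had 3.77, 5.55 and 12.8 against 15.4 and 13.9 CPM (0.99, SE 0.61). Lrig1, a crypt progenitor gene, had 11.3, 6.90 and 10.1 against 23.9 and 17.8 CPM (1.14, SE 0.40).

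Of 18 antioxidant genes 8 were lower and 3 higher in both MCJ-deficient libraries (median -0.37; -0.31 scaled for length). Among the lower genes, the peroxidase gene Gpx4 had 209.9, 347 and 243 against 136 and 123 CPM (log2 fold change -1.04, SE 0.27; edgeR adjusted p = 0.572), Gpx1 was at -0.93 (-0.32 scaled for length), and Prdx5 at -0.86 (-0.57 scaled). Txn1, thioredoxin, had 1543, 1750.1 and 1390.0 against 811 and 890.0 CPM (-0.88, or -0.30 scaled). Gclc, the catalytic subunit of glutathione synthesis, was higher, at 22.5, 28.6 and 40.6 against 52.5 and 57.3 CPM (0.85, SE 0.29; edgeR adjusted p = 0.572). Among cytosolic chaperones 4 of 17 were lower and 1 higher (median -0.34; -0.35 scaled). With 1 library left out that median ran from -0.51, without wild-type library 3 or MCJ-deficient library 13, to -0.13 without wild-type library 1 and -0.17 without MCJ-deficient library 14. Hspa1b, an inducible Hsp70 with a near-identical copy, had 139.5, 160.4 and 77.5 against 46.2 and 59.3 CPM (-1.25, SE 0.34), and Hspa8, the constitutive Hsp70, had 1836, 1382 and 888 against 848 and 713 CPM (-0.81, SE 0.35). Of 20 immediate early genes 8 were higher and 0 lower (median 0.26; 0.37 scaled; 0.39 without MCJ-deficient library 14), with Jun at 211, 199 and 212 against 316 and 309.5 CPM (0.59, SE 0.18; edgeR adjusted p = 0.572).

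**Figure D5:**
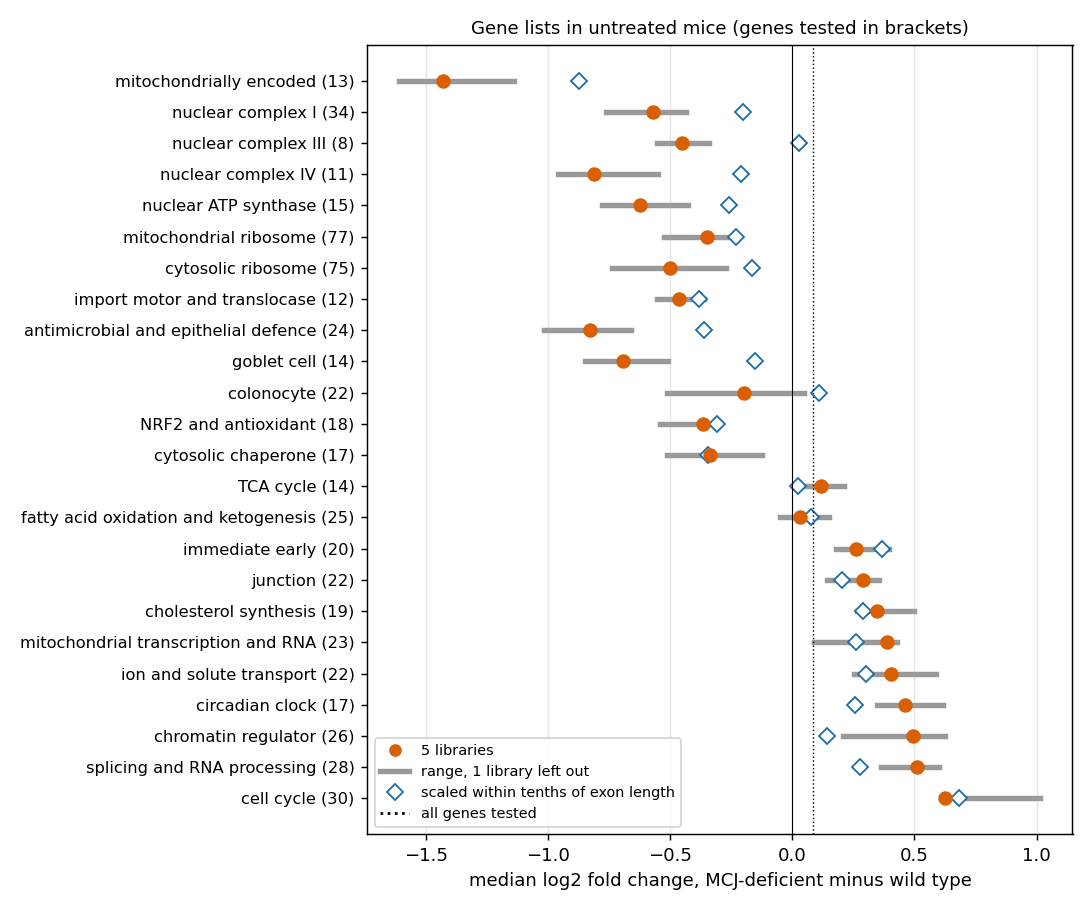
Median log2 fold change (MCJ-deficient minus wild type) of 24 gene lists, with the number of genes tested in brackets: orange points use all 5 libraries, grey bars span the medians with 1 library left out, open diamonds are scaled within bins of exon length, and the dotted line is the median of all genes (0.08). Lists of short exon length such as the complex IV genes move towards 0 when scaled for length (-0.81 to -0.21), while cholesterol synthesis (0.35 to 0.29) and the cell cycle (0.63 to 0.68) stay near their place.

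Markers of other cells of the colon wall were low, and the size of the fibroblast and endothelial medians moved with 1 library. The 15 fibroblast and matrix genes tested all had negative values, with a median of -3.05, but 4 were lower in both MCJ-deficient libraries and the median was -1.68 without wild-type library 3. That library held 291 CPM of the unscaled library for the whole fibroblast list. The other wild-type libraries held 122 and 132, and the MCJ-deficient libraries 149.8 and 128. After TMM scaling the 15 genes tested summed to 135, 175 and 342 CPM in wild type and 108 and 97.4 without MCJ, which do not overlap. The 11 endothelial genes had a median of -2.12, and -1.42 without wild-type library 3, with 3 lower in both MCJ-deficient libraries. Of 18 markers of T and NK cells 6 passed the filter, and of 11 B-cell markers 1 did. Summed marker counts of T and NK cells were 11.1, 0.0340 and 7.90 CPM of the unscaled library in wild type and 5.54 and 6.80 without MCJ, so they overlapped.

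The other conditions, with their own wild-type and MCJ-deficient mice, allow the untreated differences to be set beside those in other mice. CPM values here come from 1 scaling over all 17 libraries. With DSS, 9.14% of 15860 genes were higher and 6.38% lower in all MCJ-deficient libraries. With antibiotic then DSS, 5.03% were higher and 5.58% lower. In untreated mice these shares were 18.2% and 12.3% of the genes tested there. Non-overlap is harder to reach in the treated groups, which have more MCJ-deficient libraries. Counts without overlap are therefore not on an equal footing between conditions. Insig1 was higher in every MCJ-deficient library of each condition, at 66.1, 81.8 and 67.3 in wild type against 111, 94.8 and 176 CPM with DSS, and at 84.5, 57.3 and 56.2 against 150.3, 91.8 and 131 CPM with antibiotic then DSS. Of the 19 cholesterol genes, 2 were higher without overlap with DSS, Insig1 among them, and 5 with antibiotic then DSS (Hmgcs1, Mvk, Mvd, Sqle and Insig1), and 0 were lower in either. The difference of the Insig1 effect, untreated minus DSS, was 0.51 on the log2 scale (SE 0.41), and untreated minus antibiotic then DSS it was 0.43 (SE 0.41), both near their standard errors.

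Clock and mitochondrial genes gave other counts there, by that stricter measure. Of 18 clock genes 1 was lower and 0 higher with DSS, and 4 were higher and 0 lower with antibiotic then DSS (Per2, Nfil3, Ciart and Bhlhe40). Dbp had 5.06, 2.69 and 8.65 against 5.11, 12.0 and 12.0 CPM with DSS, and 1.16, 2.29 and 1.57 against 1.98, 0.48 and 1.88 CPM with antibiotic then DSS. The Dbp effect differed from the untreated one by 1.57 (SE 0.85; edgeR interaction test, adjusted p = 0.959) and 2.61 (SE 0.86; edgeR interaction test, adjusted p = 0.419), so neither difference passed the test. Of the 13 mitochondrially encoded genes 0 were lower without overlap with DSS and 6 with antibiotic then DSS. For mt-Co3 the differences of the effect were -1.61 (SE 0.48; edgeR interaction test, adjusted p = 0.548) and -0.98 (SE 0.48; adjusted p = 0.62 in the same test). Nuclear complex I genes were lower without overlap for 18 of 34 with DSS and 4 of 34 with antibiotic then DSS.

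Over all genes, the edgeR interaction test of untreated against DSS called 0 genes higher and 0 lower of 15860 (0.0% each), with 884 at an unadjusted p under 0.05 (5.57%) and 51 higher and 102 lower by DESeq2. Untreated against antibiotic then DSS it called 5 genes higher (0.0315%) and 4 lower (0.0252%), with 1286 at an unadjusted p under 0.05 (8.11%). Ang4, the lowest defence gene in untreated mice, came nearest in the first comparison: with DSS it had 5.58, 2.48 and 6.71 CPM in wild type and 10.2, 25.3 and 69.5 without MCJ, so its direction was opposite to that in untreated mice (difference -6.28, SE 0.95; edgeR interaction test, adjusted p = 0.0621). With antibiotic then DSS it was lower again, at 64.9, 235 and 158 against 18.0, 23.01 and 24.6 CPM (difference -0.64, SE 0.84).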

How the data were processed

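RNA-seq counts per gene, as deposited by the authors, were whole numbers under NCBI gene numbers in 1 table per condition. Per the submitters' processing notes, CASAVA 1.8.2, FastQC, Trim Galore, STAR 2.5.4 and DESeq2 were used with mm10. The counting program, annotation and strand setting are not given in the sources used here, so overlapping and antisense genes are uncertain. RefSeq named 25275 gene numbers, GENCODE M21 named 18, and 1886 stayed unnamed and were left out of the genes described. Exon length is the union of a gene's exons in GENCODE M21.

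Counts of the 5 untreated libraries were filtered with filterByExpr, TMM-scaled and tested with edgeR 4.0.16 (glmQLFit, glmQLFTest; limma 3.58.1, R 4.3.3), genotype being the only term. P-values were adjusted by Benjamini-Hochberg over all 13559 genes tested, sex chromosomes and unplaced genes included. Differences between conditions used 1 fit over all 17 libraries. The mitochondrial share was compared by exact permutation (scipy 1.17.1, Python 3.11.15, pandas 2.3.3). The fits were tested on simulated data. DESeq2 1.42.0 and other settings served as alternatives, with scaling within 10 bins of exon length added after the data had been seen.

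Named genes were Dnajc15 and its 3 nearest tested neighbours on each side, the 20 genes of smallest p in each direction with at least 5 CPM and no overlap, the 6 of smallest p in each list, every member of lists of up to 20, and the 10 of smallest p for each difference between conditions. The genes, lists and tests were chosen with earlier results of these data known. Results for some genes are not reported here.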

Additional observations from a re-analysis of the deposited data

Results flagged for a closer look

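The MCJ effect differed between untreated mice and mice given an antibiotic and then DSS for 9 genes (edgeR interaction test over 15860 autosomal and mitochondrial genes). Values are CPM from the scaling over all 17 libraries, and each difference is untreated minus antibiotic then DSS on the log2 scale.

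Reg4 was higher without MCJ in untreated mice (83.0, 39.0 and 63.3 in wild type against 171 and 129.8) and lower with antibiotic then DSS (62.6, 29.0 and 22.9 against 0.919, 1.09 and 0.223), a difference of 6.94 (edgeR adjusted p = 0.0129). Plet1, an epithelial surface protein, showed the opposite order, with 18.5, 28.6 and 11.3 against 6.55 and 7.97 untreated and 46.6, 76.1 and 51.0 against 302, 202 and 279 treated (-3.59; edgeR adjusted p = 0.0113). For Hbb-b1 the values were 5.85, 5.495 and 4.28 against 1.03 and 1.88 untreated and 126, 95.1 and 89.6 against 2955, 4474 and 336 treated. The globin genes had differences of -6.49 for Hbb-b1, -6.28 for Hba-a2 and -6.10 for Hba-a1 (edgeR adjusted p = 0.0135, 0.0229 and 0.0336). Hba-a1 and Hba-a2 are near-identical copies, and globin RNA marks red blood cells in the sample.

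The other 4 rest on untreated wild-type libraries at or near 0 counts, so their fitted differences depend on the prior count and are no bounds. They were 6.97 for Sis, 17.92 for Npy1r, 9.38 for Bicd1 and 7.85 for Cenpq (edgeR adjusted p = 0.00554, 0.0355, 0.0355 and 0.0368). Sis, sucrase-isomaltase, had 0.0409, 0.0486 and 0 against 1.45 and 1.98 untreated and 12.2, 10.8 and 9.55 against 4.28, 6.29 and 3.27 treated. Npy1r was at 0 in all 3 untreated wild-type libraries and in all 3 treated MCJ-deficient libraries. Npy1r, Bicd1 and Cenpq were named after their values were seen.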

How the results depend on the processing

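Against 0 genes higher and 0 lower in untreated mice, DESeq2 called 23 and 252, edgeR without a filter on low counts 1 and 8, and limma-voom with quality weights 3 and 19. Lower calls without the filter and with limma-voom include the Ccl21 copies. Those of limma-voom also include Sprr2 copies and mitochondrial genes, so these counts are not all separate signals. One edgeR fit over all 17 libraries called 3 and 0. With 1 library left out, 0 genes were called higher and 0 to 1 lower, the 1 being Ang4 without MCJ-deficient library 14. DESeq2 size factors, the stricter filter, the fit without mitochondrial genes and the length scaling called 0 in each direction. For untreated minus DSS, DESeq2 called 51 higher and 102 lower, and leaving out 1 library gave 0 to 36 higher and 0 to 2 lower, with 36 without wild-type library 3. For untreated minus antibiotic then DSS, against 5 and 4, DESeq2 called 92 and 83, and leaving out 1 library gave 1 to 64 higher and 0 to 7 lower. The 64 came without wild-type library 3, and 1 and 2 higher and 0 lower without MCJ-deficient libraries 13 and 14. The causes were not tested.

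With the mouse number as a replicate block, 0 genes were called higher and 0 lower. Only 2 pairs share a number, and the deviations of same-numbered libraries correlated at -0.11 and -0.10. The deviations of the 2 MCJ-deficient libraries from their mean are mirror images. These values therefore cannot show whether same-numbered libraries share more than a number. The median of all genes, 0.08, was 0.36 under the block and 0.22 under limma-voom. Over 15 alternatives 123 of 127 genes kept their sign. Many of these genes were named because the genotypes did not overlap or p was small. A kept sign was largely fixed by that choice and is no separate support. The genes that changed sign were neighbours of Dnajc15, chosen by position. With 1 library left out Dgkh ran from -0.0895 to 0.57, the lowest without MCJ-deficient library 14, and Epsti1 from -0.11 (without wild-type library 2) to 0.48. Likewise Ccdc122 ran from -0.0262 (without wild-type library 3) to 1.01, and Lacc1 from -0.97 to 0.12 (without wild-type library 3). Under the block Ccdc122 was at -0.0234 and Lacc1 at 2.73, and Dgkh was at -0.16 when scaled for length. The cause was not tested. With 3 and 2 libraries the exact test cannot give a p below 0.2.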
